A study of Homo sapiens with 6 samples.

Results

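The genes described here are 32 genes of mitotic entry, the spindle checkpoint and the kinetochore, taken by symbol from a deposited table of 35106 human genes. All 32 had a row, and all 32 passed the filter on low counts. Transcripts were measured by RNA sequencing in HCT116 cells, a colon carcinoma line labelled wild type. The 3 treated libraries came from cells given curcumin, the yellow polyphenol of turmeric, for 24 h at a dose that the labels write as 30 with a unit reading as micrometres, given here as 30 µM. The 3 control libraries carry the treatment label none, and no solvent is named for either group. The labels do not say whether replicates were separate cultures, so every p-value measures only the spread between these libraries, which may be technical.

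A cell enters mitosis when cyclin B bound to the kinase CDK1 is switched on by CDC25 phosphatases. Aurora and Polo kinases then build the spindle, and checkpoint proteins gathered on unattached kinetochores hold back the anaphase-promoting complex until every chromosome is attached. CDC20, the activator of that complex, then directs the destruction of securin and cyclin B. Most of these genes are transcribed in waves, highest in late S phase, G2 and M, so their level in a culture follows the share of dividing cells. In bulk RNA, fewer mitotic cells and less transcript per cell cannot be told apart.

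After curcumin the mitotic genes did not move as a block. CENPF, MKI67, ASPM, TTK, CENPE, INCENP, CDK1, TOP2A and BUB1B fell, by 0.87 to 1.70 on the log2 scale. PTTG1 and UBE2C rose by 0.92 and 0.76 with TMM scaling (0.11 and −0.04, not called, with library size alone), and the other 21 did not pass the test (edgeR's quasi-likelihood test, adjusted p under 0.05 over all genes). These 9 lower genes are 28.1% of the 32, beside 28.9% of all 13718 genes tested that were called lower. The 2 higher genes are 6.25%, beside 27.2% of all genes called higher. In 8 of the 32 every treated library lay below every untreated one (33.1% of all genes), and in 2 every treated library lay above (30.9% of all genes). The share called lower is close to the background and is no result about mitotic genes. Their median log2 fold change was −0.28, and that of all genes tested was −0.04.

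Levels are CPM, counts scaled to a common library size with TMM factors, so a change is a change against the bulk of the other transcripts. Those factors ran from 1.30 to 1.34 untreated and from 0.72 to 0.80 after curcumin, and the 100 most abundant genes took 18.9 to 22.7% of untreated and 39.9 to 43.3% of treated counts. With library size alone, 25 mitotic genes were called lower and 0 higher, where 56.5% of all genes were called lower and 9.62% higher. The median of all genes moved by the same scaling to −0.84 and that of the mitotic genes to −1.09. As a share of raw counts, the 32 genes together took 0.245, 0.455 and 0.208% of untreated replicates 1, 2 and 3, and 0.177, 0.154 and 0.117% of curcumin replicates 1, 2 and 3. Library totals ran from 16663562 to 20311769 counts, and the lowest count of any mitotic gene was 62. Of 8 epithelial genes, KRT8, KRT18, KRT19, EPCAM and CDH1 had at least 1554 counts in every library, whereas the gut genes VIL1 and LGALS4 had at most 12 and 35. Of the 7 that could be tested, KRT8, KRT18, KRT19, EPCAM and LGALS4 were called higher with TMM scaling. CDH1 was not called, and CDX2 was called lower (log2 −1.40, edgeR adjusted p = 0.00058). With library size alone, 2 of the 7 were called higher and 2 lower. Of the leukocyte genes CD3D and CD3E were at 0 and PTPRC had at most 7 counts, while the summed level of the 6 leukocyte genes was 0.411 to 0.607 CPM untreated and 12.4 to 31.2 CPM after curcumin, mostly CD14. Of the endothelial genes CDH5 had at most 3 counts, and the sum over 4 was 1.44 to 2.24 and 8.97 to 28.2 CPM, after curcumin mostly PECAM1. Of the fibroblast genes COL1A2 had at most 1 count, and the sum over 5, nearly all of it COL1A1, reached 31.1 CPM untreated and 38.3 CPM after curcumin. Their part in the results below was not tested.

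Untreated replicate 2 stood apart for these genes. All 32 were highest among the untreated libraries in that replicate, at 1.24 to 2.65 times the mean of the other untreated libraries (median 1.99). The same ratio over all genes tested had a median of 0.986, and 36.9% of all genes were highest in that library. In 29 of the 32 the lowest untreated library was replicate 3, for which the share over all genes was not taken. In 28 the lowest treated library was curcumin replicate 3, as in 39.1% of all genes. The median coefficient of variation of the mitotic genes was 45.6% among untreated and 14.8% among curcumin libraries, beside 14.8% and 18.3% over all genes. Without untreated replicate 2, 6 mitotic genes were called lower and 5 higher (25.9% and 25.8% of all genes), and the median log2 fold change turned to 0.09.

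**Figure D1:**
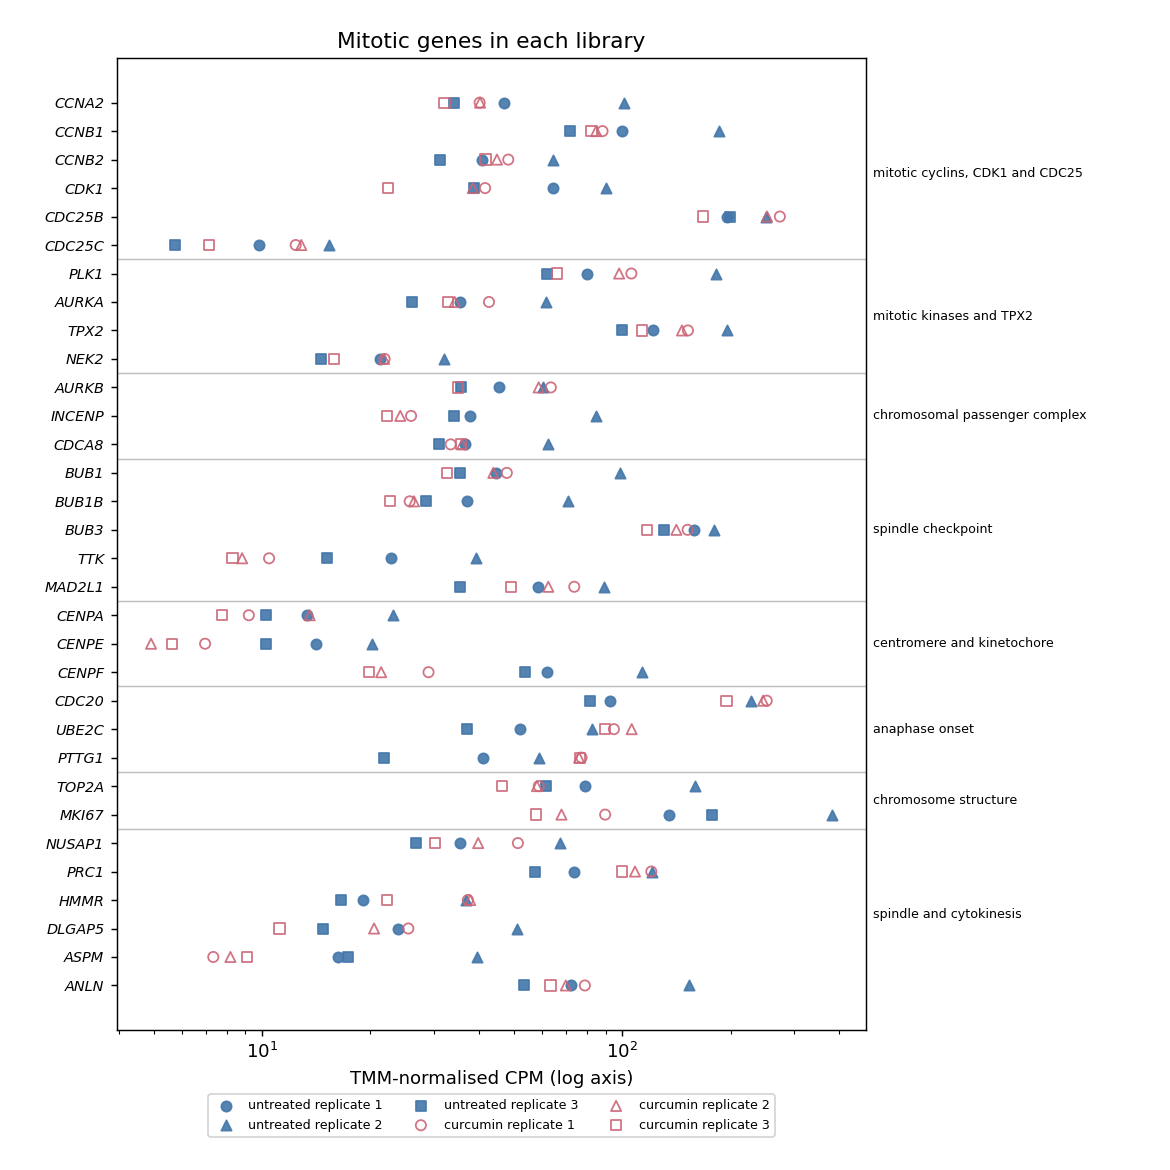
TMM-normalised CPM (log axis) of the 32 mitotic genes in each of 6 libraries, grouped by role; filled blue marks are untreated and open red marks curcumin replicates. The filled triangles of untreated replicate 2 lie to the right of the other untreated marks for all 32 genes.

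Several of these genes share short promoter elements known from G2 and M phase genes. The cell cycle genes homology region, with the letters TTTGAA or a variant, is bound by the MuvB complex. The CCAAT box is bound by NF-Y. RefSeq promoter windows on GRCh38.p14, from 250 bases before to 50 after the gene start, were matched for 27 of the 32 by symbol. Searched on both strands, TTTGAA was found in 18 of the 27 windows (66.7%), against 15.4% of all 27305 windows of that length. The variant spelled TTTAAA was in 10 of the 27 (37.0%, against 12.3%). A CCAAT box was in 22 of the 27 (81.5%, against 35.7%), and 16 of the 27 had at least 2 of them (59.3%, against 11.3%). The E2F letters TTCCCGC, or else TTGGCGC, were in 5 of the 27 (18.5%, against 9.33%). The motifs were counted separately where they overlapped. TTTGAA was in 7 of the 8 matched genes that fell, in 11 of the 18 not called and in 0 of 1 that rose. A match is a description of the letters only.

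The 250 bases before the start are shown for the gene that fell most and the gene that rose most among those matched, and for the 2 matched genes closest to no change. Capitals mark the motif letters on either strand, and each sequence is printed 5′ to 3′ on the strand of its gene.
CENPF: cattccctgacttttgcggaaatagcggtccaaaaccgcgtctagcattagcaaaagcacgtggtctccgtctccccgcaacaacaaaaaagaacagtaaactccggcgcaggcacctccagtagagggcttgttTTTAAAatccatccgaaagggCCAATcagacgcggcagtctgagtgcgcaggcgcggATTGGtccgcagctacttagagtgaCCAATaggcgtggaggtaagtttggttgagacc
PTTG1: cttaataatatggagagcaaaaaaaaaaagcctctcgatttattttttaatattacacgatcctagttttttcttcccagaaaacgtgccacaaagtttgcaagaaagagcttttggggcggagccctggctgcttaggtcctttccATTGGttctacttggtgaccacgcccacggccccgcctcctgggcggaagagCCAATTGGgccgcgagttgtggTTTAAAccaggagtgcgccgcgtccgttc
CCNB2: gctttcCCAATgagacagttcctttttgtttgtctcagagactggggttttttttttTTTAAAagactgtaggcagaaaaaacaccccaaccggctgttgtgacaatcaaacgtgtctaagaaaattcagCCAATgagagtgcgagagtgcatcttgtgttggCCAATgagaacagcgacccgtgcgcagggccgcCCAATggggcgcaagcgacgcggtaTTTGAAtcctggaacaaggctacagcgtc
MAD2L1: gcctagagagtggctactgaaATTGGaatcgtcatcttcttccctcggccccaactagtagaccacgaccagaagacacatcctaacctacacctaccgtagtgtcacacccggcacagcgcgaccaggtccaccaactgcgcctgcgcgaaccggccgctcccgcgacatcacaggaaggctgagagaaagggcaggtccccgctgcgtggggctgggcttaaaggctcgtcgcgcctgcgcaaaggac

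The CENPF stretch is chr1:214602945-214603194 on the plus strand, and it holds 3 CCAAT boxes and 1 TTTAAA. That of PTTG1 is chr5:160421605-160421854 on the plus strand, and it also holds 3 CCAAT boxes and 1 TTTAAA. CCNB2 (chr15:59104896-59105145, plus strand) holds 4 CCAAT boxes, 1 TTTAAA and 1 TTTGAA, the last with its first base 29 bases before the start. MAD2L1 (chr4:120066849-120067098, minus strand) holds 1 CCAAT box. These stretches of CENPF and PTTG1 hold the same motif letters, and CENPF fell while PTTG1 rose. The full windows differ, since that of CENPF also has 1 TTTGAA and a further CCAAT box that lie past the printed stretch. The TTTGAA match of MAD2L1 also lies past it.

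**Figure D2:**
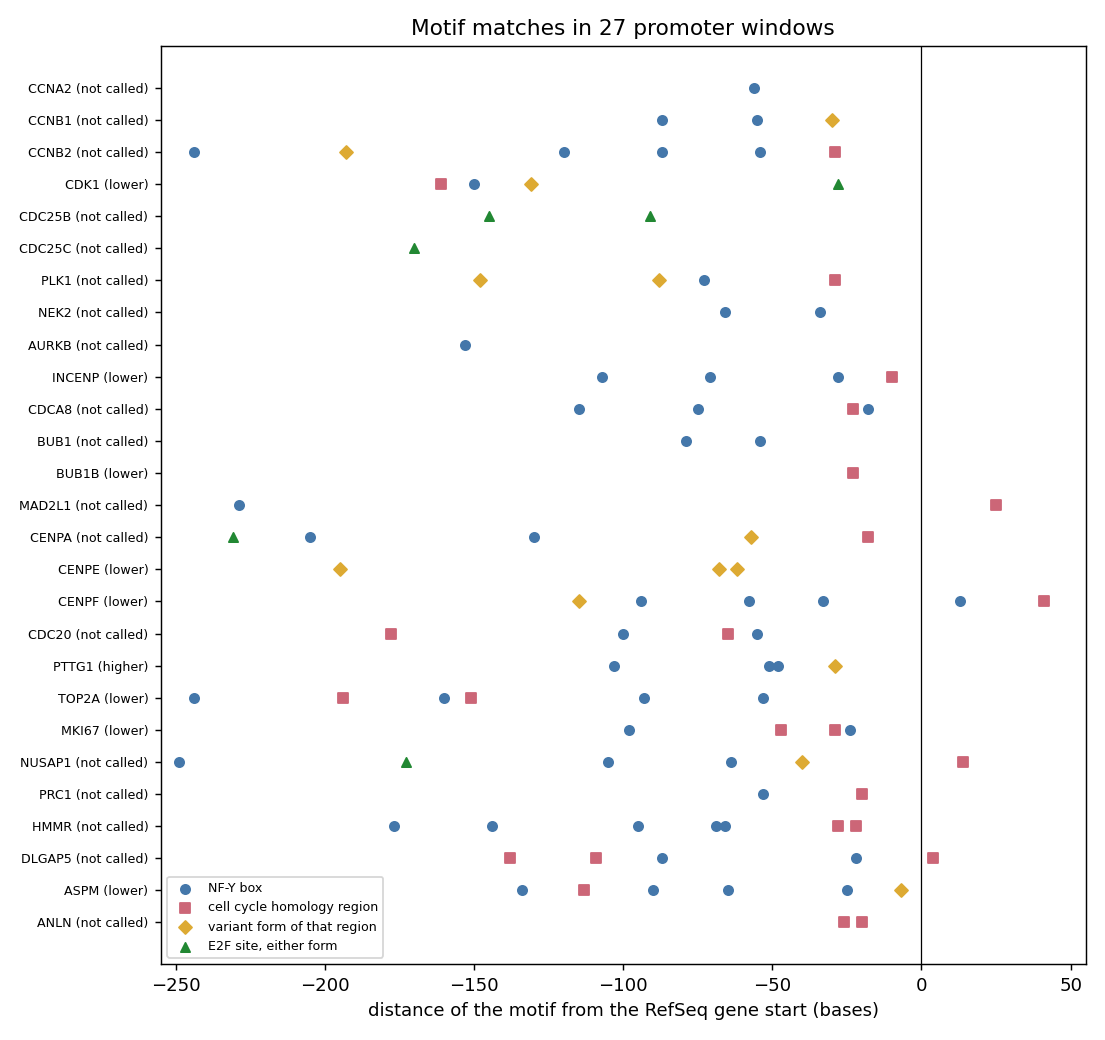
Position of motif matches relative to the RefSeq gene start (bases, 0 at the vertical line) in the 27 matched promoter windows, each named with its call in the test. CCAAT boxes, bound by NF-Y, are in 22 windows, and 18 windows hold TTTGAA.

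The kinase that drives entry fell, while its cyclins and phosphatases did not pass the test. Whether its change differs from theirs was not tested. CDK1 (chromosome 10, 60778331 to 60794852 on GRCh38) stood at 64.2, 90.2 and 38.8 CPM in untreated replicates 1 to 3 and at 41.6, 38.5 and 22.4 CPM after curcumin. The groups overlapped, since the lowest untreated library lay below the highest treated one. CDK1 fell by 0.91 ± 0.31 (log2, standard error; edgeR adjusted p = 0.029), with no call without untreated replicate 1, without untreated replicate 2 or without curcumin replicate 3 (adjusted p = 0.067, 0.12 and 0.070). CCNB1, the main mitotic cyclin, stood at 99.9, 186 and 71.5 CPM untreated and at 88.2, 84.7 and 82.2 CPM treated. All of its treated values lay between untreated replicates 1 and 3, and the log2 fold change was −0.49 ± 0.29 (edgeR adjusted p = 0.18). CCNB2, its Golgi-associated relative, was almost level, at 45.4 ± 17.1 and 45.0 ± 3.27 CPM (SD, n = 3). CCNA2, the cyclin of S and G2 phase, was 60.8 ± 35.8 and 37.6 ± 4.70 CPM (SD, n = 3; edgeR adjusted p = 0.11). CCNA2 and CCNB1 were called lower with no filter (edgeR adjusted p = 0.0093 and 0.033) and without untreated replicate 3 (0.021 and 0.027). With library size alone both were also called lower (edgeR adjusted p = 0.0023 and 0.0021). They stayed without a call in 12 and 11 of the 16 planned settings. Of the activating phosphatases, CDC25B was 215 ± 31.3 and 231 ± 56.1 CPM and CDC25C 10.3 ± 4.84 and 10.8 ± 3.19 CPM (SD, n = 3). Neither was called, and intervals of 2 standard errors ran from −0.29 to 0.50 for CDC25B and from −0.65 to 0.79 for CDC25C on the log2 scale.

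None of the mitotic kinase genes PLK1, AURKA and NEK2, nor TPX2, which activates Aurora A on the spindle, passed the test (0 of 4 in either direction). PLK1, the Polo kinase of centrosomes and kinetochores, read 80.1, 183 and 61.8 CPM untreated and 106, 98.1 and 66.1 CPM treated. Its 3 treated libraries lay inside the untreated range, with a log2 fold change of −0.26 ± 0.36 (edgeR adjusted p = 0.55). Without untreated replicate 2 the value was 0.33 (edgeR adjusted p = 0.25). AURKA, the centrosomal Aurora kinase, was 41.0 ± 18.3 and 36.6 ± 5.29 CPM and TPX2 139 ± 49.9 and 138 ± 20.8 CPM (SD, n = 3). NEK2, a centrosome-splitting kinase, was 22.6 ± 8.79 and 19.9 ± 3.46 CPM (SD, n = 3).

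Of the 3 genes of the chromosomal passenger complex among the 32, only INCENP was called. INCENP encodes the scaffold that holds the complex together. It stood at 37.7, 84.4 and 34.2 CPM untreated and at 25.9, 24.2 and 22.2 CPM after curcumin. Every treated library lay below every untreated one, and INCENP fell by 1.11 ± 0.31 (edgeR adjusted p = 0.012). Without untreated replicate 2 it fell by 0.59 (edgeR adjusted p = 0.018). The kinase subunit AURKB was 45.6, 60.3 and 35.7 CPM untreated and 63.4, 58.6 and 34.9 CPM treated, groups that overlapped throughout (0.15 ± 0.25, edgeR adjusted p = 0.64). CDCA8, the targeting subunit borealin, was 43.2 ± 16.6 and 35.0 ± 1.40 CPM (SD, n = 3; edgeR adjusted p = 0.31). BIRC5, the survivin subunit, is not among the 32 and was looked up after the others had been seen. It rose from 114 ± 48.6 to 222 ± 4.89 CPM (SD, n = 3; log2 0.96 ± 0.26, edgeR adjusted p = 0.0093), and was not called with library size alone (0.15, adjusted p = 0.62).

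Of 5 spindle checkpoint genes, TTK and BUB1B fell and 3 were not called. TTK, the MPS1 kinase that starts the checkpoint signal, read 22.8, 39.3 and 15.1 CPM untreated and 10.5, 8.81 and 8.29 CPM treated. The groups were apart, and TTK fell by 1.48 ± 0.32 (edgeR adjusted p = 0.0030). BUB1B, which encodes BubR1 of the mitotic checkpoint complex, read 37.0, 70.9 and 28.6 CPM untreated and 25.7, 26.4 and 22.7 CPM treated. It fell by 0.87 ± 0.30 (edgeR adjusted p = 0.029) but was not called without untreated replicate 2 (−0.41, adjusted p = 0.098). The BUB1B call was also lost without curcumin replicate 1, 2 or 3 (edgeR adjusted p = 0.053, 0.061 and 0.063) and with limma-voom (0.060). BUB1, the kinase that recruits it, was 59.5 ± 34.1 and 41.5 ± 7.86 CPM (SD, n = 3; edgeR adjusted p = 0.21). MAD2L1, the inhibitor that binds CDC20, was 60.9 ± 26.7 and 61.7 ± 12.3 CPM and BUB3, a WD-repeat adaptor, 156 ± 24.7 and 137 ± 17.7 CPM (SD, n = 3). Neither MAD2L1 nor BUB3 passed the test (edgeR adjusted p = 0.96 and 0.35).

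Of the 3 centromere and kinetochore genes 2 fell. CENPF, a large coiled-coil protein of kinetochores and the nuclear envelope (chromosome 1, 214603195 to 214664588), read 61.8, 114 and 53.8 CPM untreated and 29, 21.4 and 19.9 CPM treated. The highest treated library was well below the lowest untreated one, and CENPF fell by 1.70 ± 0.28 (edgeR adjusted p = 0.00065). CENPE, the kinetochore motor that moves chromosomes to the spindle equator, read 14.1, 20.2 and 10.2 CPM untreated and 6.95, 4.92 and 5.63 CPM treated. Its groups did not overlap either, and CENPE fell by 1.35 ± 0.29 (edgeR adjusted p = 0.0027). CENPA, the histone H3 variant that marks centromeres, was 15.5 ± 6.70 and 10.2 ± 3.04 CPM (SD, n = 3), with overlapping groups and no call (−0.61 ± 0.33, edgeR adjusted p = 0.14).

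Of the 3 genes of anaphase onset, 2 rose and 0 fell. PTTG1, which encodes securin, the inhibitor of separase, read 41.0, 58.6 and 21.8 CPM untreated and 77.1, 75.9 and 76.5 CPM treated. Every treated library was above every untreated one, and PTTG1 rose by 0.92 ± 0.29 (edgeR adjusted p = 0.020), a call lost when untreated replicate 1 was left out (adjusted p = 0.063) or curcumin replicate 2 (0.052). UBE2C, the ubiquitin-conjugating enzyme of the anaphase-promoting complex, read 52.0, 82.4 and 37.1 CPM untreated and 94.9, 106 and 89.7 CPM treated. Its groups were apart too, and it rose by 0.76 ± 0.25 (edgeR adjusted p = 0.025). UBE2C was not called without untreated replicate 1, untreated replicate 3 or curcumin replicate 2 (edgeR adjusted p = 0.097, 0.078 and 0.087). CDC20, the activator and checkpoint target, read 92.5, 228 and 81.5 CPM untreated and 252, 246 and 195 CPM treated. Untreated replicate 2 lay within the treated range, and CDC20 was not called (0.79 ± 0.34, edgeR adjusted p = 0.070). Without that library it was 1.40 (edgeR adjusted p = 0.00029). CDC20 was also called higher with no filter (edgeR adjusted p = 0.013), with DESeq2 (0.021) and with limma-voom (0.027). With library size alone the log2 fold changes of PTTG1, UBE2C and CDC20 were 0.11, −0.04 and −0.02 (edgeR adjusted p = 0.74, 0.89 and 0.97). With RLE factors, a scaling like TMM, PTTG1 and UBE2C were called at 0.96 and 0.81 (edgeR adjusted p = 0.017 and 0.021). Rows for pseudogenes and copies of the 32 genes, PTTG2 and PTTG3P among them, had at most 19 counts in a library, but how reads were shared with such copies is not stated.

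Both chromosome genes fell. MKI67, which encodes the Ki-67 coat of mitotic chromosomes and is the usual marker of dividing cells, read 135, 382 and 177 CPM untreated and 89.7, 67.9 and 57.6 CPM treated. It fell by 1.69 ± 0.35 (edgeR adjusted p = 0.0022), and by 1.14 without untreated replicate 2 (adjusted p = 0.0024). TOP2A, the topoisomerase that untangles sister chromatids, read 78.9, 159 and 61.5 CPM untreated and 58.7, 58.0 and 46.3 CPM treated. It fell by 0.88 ± 0.31 (edgeR adjusted p = 0.032). Its highest treated library was just under the lowest untreated one, and without untreated replicate 2 it was not called (−0.38, adjusted p = 0.11). The TOP2A call was also lost without curcumin replicate 2 or 3 (edgeR adjusted p = 0.065 and 0.077) and with limma-voom (0.056).

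Of the 6 spindle and cytokinesis genes only ASPM was called. ASPM, a spindle pole protein whose loss causes microcephaly, read 16.3, 39.6 and 17.4 CPM untreated and 7.33, 8.17 and 9.07 CPM treated, and fell by 1.58 ± 0.34 (edgeR adjusted p = 0.0028). Every treated library of ASPM lay below every untreated one. PRC1, which bundles midzone microtubules, was 84.0 ± 33.0 and 109.7 ± 10.3 CPM and HMMR, a spindle assembly factor, 24.2 ± 11.1 and 32.5 ± 8.84 CPM (SD, n = 3). Neither was called (edgeR adjusted p = 0.20 and 0.27), but without untreated replicate 2 both were higher, by 0.73 and 0.85 (adjusted p = 0.0072 and 0.024). NUSAP1, ANLN and DLGAP5, which serve microtubule binding, the contractile ring and spindle assembly, had log2 fold changes of −0.09, −0.40 and −0.65 with no call (edgeR adjusted p = 0.83, 0.32 and 0.22).

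**Figure D3:**
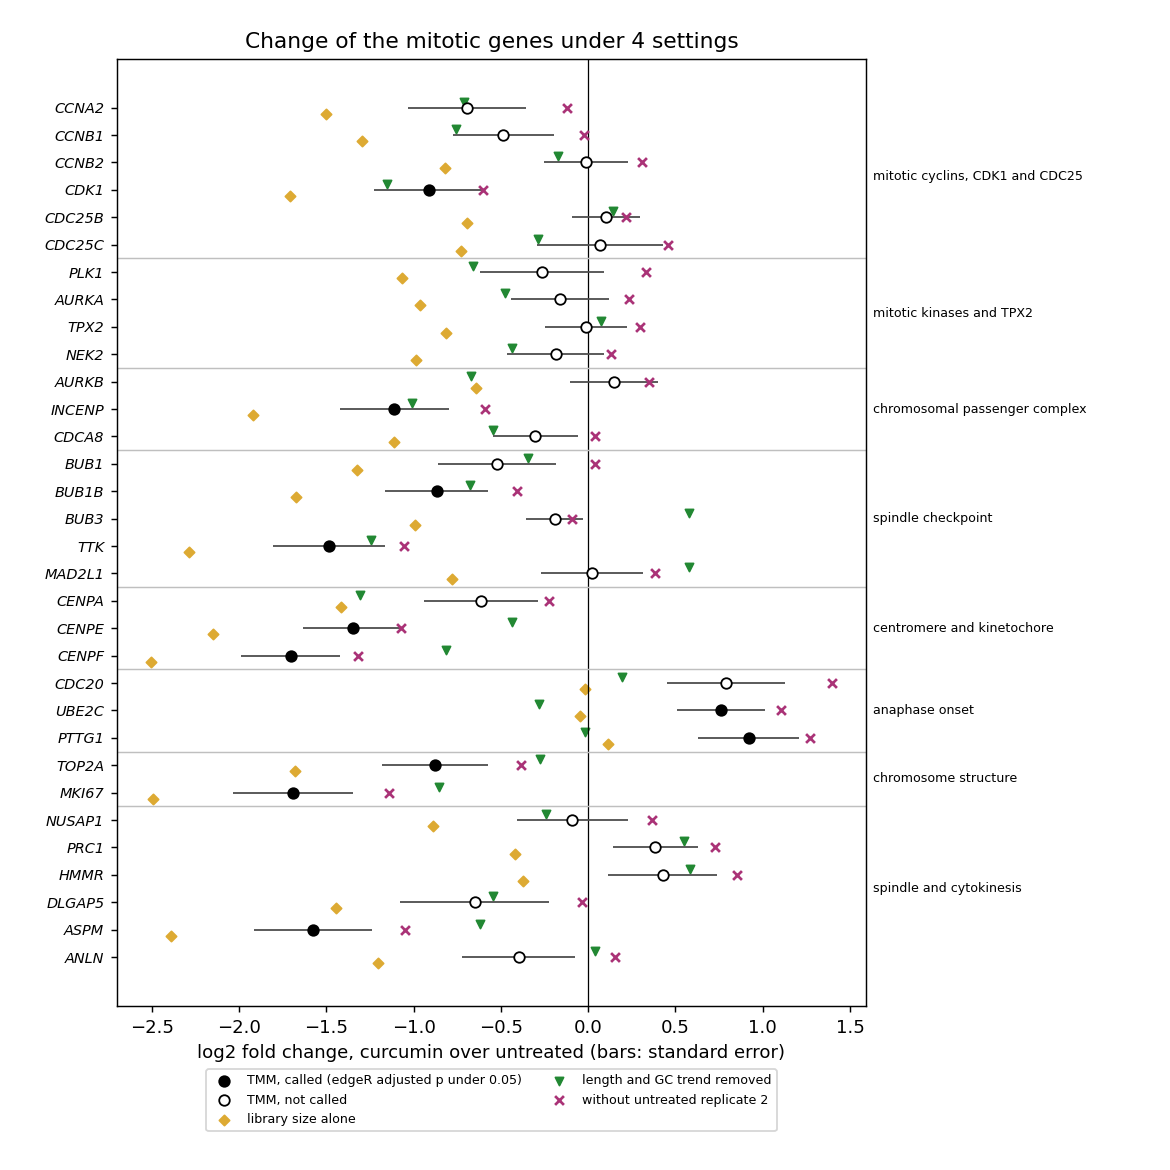
Log2 fold change, curcumin over untreated, of each mitotic gene with TMM scaling (circles, filled where called; bars are standard errors) and under 3 other settings. Diamonds for library size alone lie to the left of the circles for all 32 genes, and crosses without untreated replicate 2 lie to the right.

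The genes were also set against each other inside each library, a measure that does not depend on the scaling between libraries. Each value was taken as the log2 of its CPM over the median of the 32 genes in the same library. On that measure PTTG1 was −0.14, −0.51 and −0.67 in untreated and 0.68, 0.85 and 1.17 in curcumin replicates. CDC20 was 1.04, 1.45 and 1.23 untreated and 2.39, 2.55 and 2.52 treated. UBE2C was 0.20, −0.02 and 0.09 untreated and 0.98, 1.34 and 1.40 treated. All 3 genes of anaphase onset were thus higher relative to the rest in every treated library than in any untreated one, untreated replicate 2 included. The same held for CCNB2, AURKA, TPX2, AURKB, MAD2L1, NUSAP1, PRC1 and HMMR. CCNA2, CDK1, INCENP, BUB1B, TTK, CENPE, CENPF, TOP2A, MKI67 and ASPM were lower in every treated library, and the remaining genes overlapped. Such a separation was therefore not particular to the anaphase genes. The share of all genes that separate on this measure was not taken, so these genes cannot be set against a background. CENPF was 0.45, 0.45 and 0.63 untreated and −0.73, −0.97 and −0.77 treated, and TTK was −0.99, −1.08 and −1.20 untreated and −2.20, −2.25 and −2.03 treated. The mean shift on this scale ran from −1.33 for CENPF to 1.34 for PTTG1. CCNB1, ANLN, CDCA8 and BUB1 lay closest to the middle, with shifts of −0.06, 0.05, 0.07 and −0.08. CDK1 shifted by −0.57 while CCNB2 shifted by 0.36, so the kinase and this cyclin moved apart. These ratios show unequal change and not which of the genes stayed level.

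**Figure D4:**
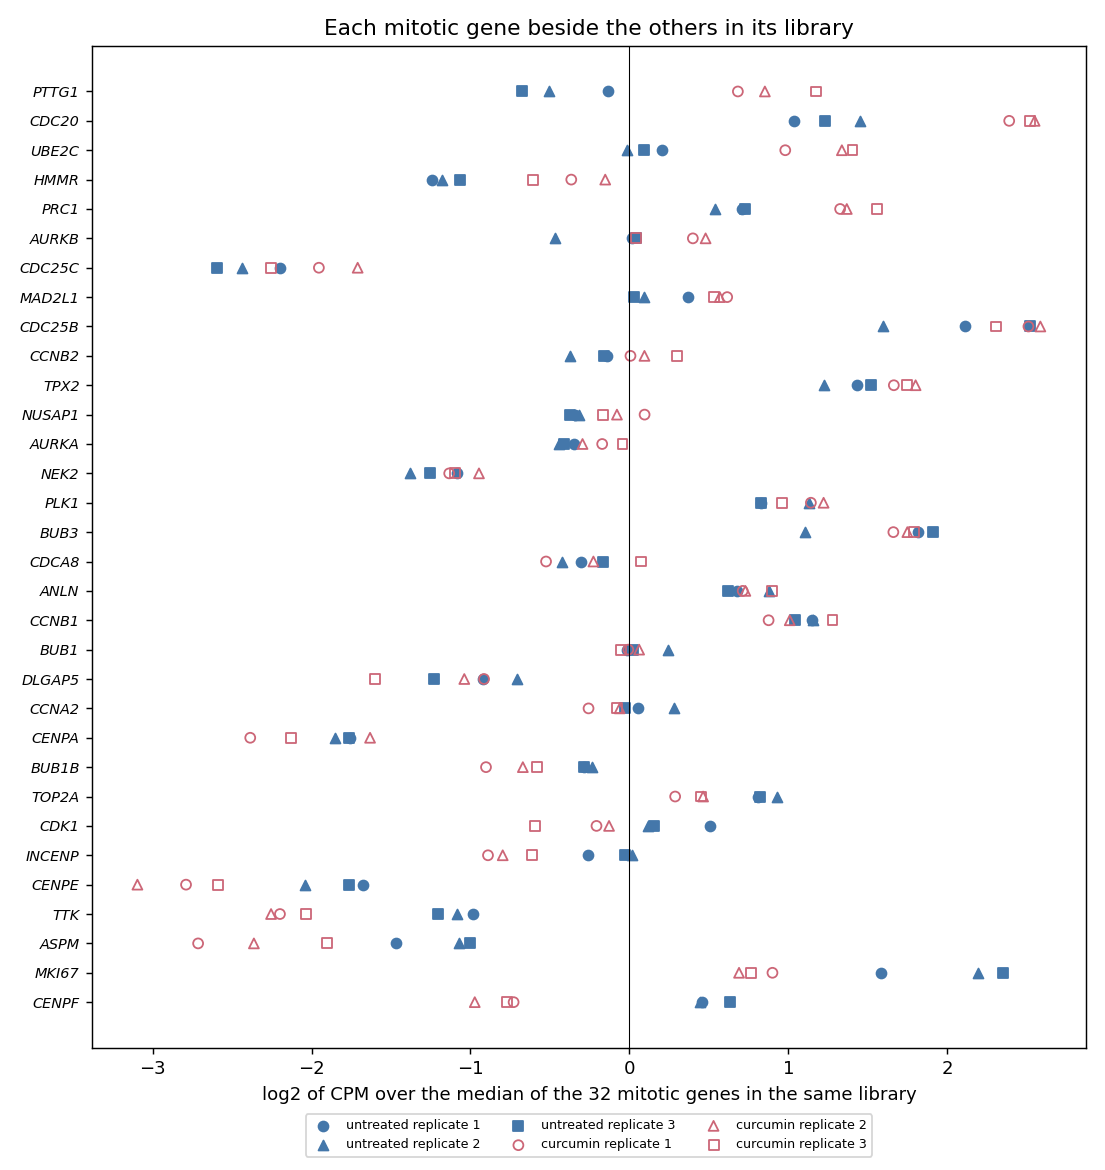
Log2 of each gene's CPM over the median of the 32 mitotic genes in the same library, ordered by the mean shift between groups; marks as in the plot of levels by library. PTTG1, CDC20 and UBE2C at the top have all 3 treated marks to the right of the untreated ones, and CENPF, MKI67, ASPM, TTK and CENPE at the bottom have them to the left. Some genes between these are also apart in each direction.

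Transcript length moved with the change. The Spearman rho between log2 fold change and the length of the longest coding transcript was −0.56 across the 32 mitotic genes and −0.50 across 10627 protein-coding genes at 5 CPM or more, a description over genes that share the same 6 libraries. MKI67, ASPM, CENPF and CENPE, with 12678, 10887, 10307 and 8612 bases, are the 4 longest of the 32, and UBE2C and PTTG1, with 914 and 1070 bases, are the shortest. The 16 longer mitotic genes (3102 to 12678 bases) held 8 of the 9 that fell, where 46.1% of the 5878 genes in that length range were called lower. Their median log2 fold change was −0.69, and that of the range −0.45. The 16 shorter ones (914 to 2973 bases) held 1 that fell and 2 that rose, where 15.3% of the 4067 genes of that range were called lower and 46.5% higher. Their median was −0.18, and that of the range 0.45. Short mitotic genes were not all alike: CENPA and AURKB, with 1452 and 1254 bases, had log2 fold changes of −0.61 and 0.15, and CDK1, with 1948 bases, fell.

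With each library's trend with length and GC content removed, 6 mitotic genes were called lower and 1 higher (22.5% and 25.4% of all genes). CDK1, INCENP, TTK and CENPF were called lower as before, at −1.15, −1.01, −1.24 and −0.81 (edgeR adjusted p = 0.0076, 0.030, 0.0075 and 0.045). CENPA and CCNB1 were called lower in addition, at −1.31 and −0.76 (adjusted p = 0.0081 and 0.048), and BUB3, whose transcript has 7828 bases, was called higher at 0.58 (adjusted p = 0.028). The calls of MKI67, ASPM, CENPE, TOP2A and BUB1B were lost, at −0.85, −0.62, −0.43, −0.28 and −0.68 (adjusted p = 0.091, 0.14, 0.23, 0.47 and 0.079). PTTG1, UBE2C and CDC20 came to −0.02, −0.28 and 0.19 and were not called (adjusted p = 0.97, 0.38 and 0.68). AURKB and CDCA8, of the same complex as INCENP, came to −0.67 and −0.54, also with no call (adjusted p = 0.056 and 0.10). Removing the trend and leaving out untreated replicate 2 together, a setting chosen after seeing the data, left CDK1, TTK and CENPA lower at −0.83, −0.84 and −0.94 (adjusted p = 0.029, 0.020 and 0.027). CDC20, PRC1, HMMR, MAD2L1, BUB3 and ANLN were then called higher, by 0.86, 0.87, 0.999, 0.94, 0.66 and 0.58 (adjusted p = 0.0036, 0.0072, 0.011, 0.019, 0.030 and 0.032), while INCENP and CENPF were not called (−0.44 and −0.43, adjusted p = 0.070 and 0.19). TTK was the only gene of the 32 called in the same direction in all 16 planned settings and in this added one. Whether length itself or something that goes with it lies behind the trend was not tested.

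**Figure D5:**
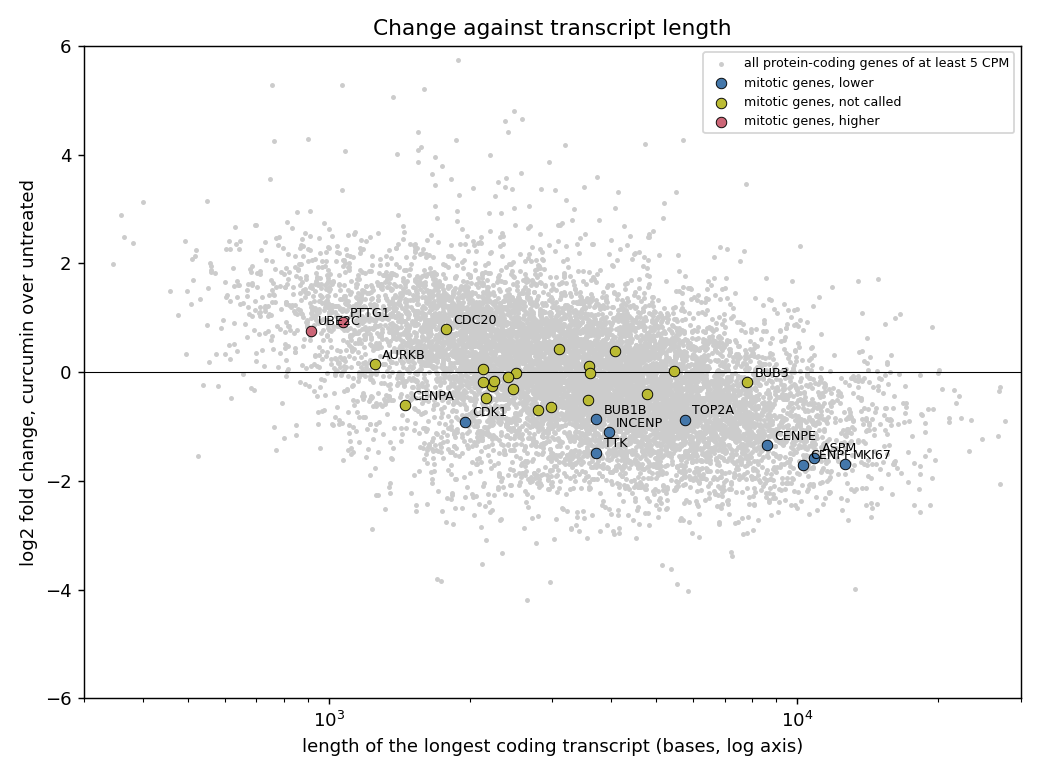
Log2 fold change, curcumin over untreated, against the length of the longest coding transcript (bases, log axis); grey points are 10627 protein-coding genes and coloured points the mitotic genes by call. The 4 longest mitotic genes are all lower, and the 2 genes called higher, UBE2C and PTTG1, are the shortest.

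Other genes of mitosis also moved in both directions. In 6 lists with 106 genes, all tested, 20 rose and 26 fell (5 and 69 with library size alone), and the median log2 fold change was −0.13. With TMM scaling both counts lie under the 27.2% higher and 28.9% lower of all genes. With library size alone the lower count lies above its background, 56.5% of all genes, and the higher count under its own, 9.62%. With no filter 21 rose and 34 fell, both above the 18.8% and 20.6% of all genes. Among 13 genes of entry control 3 rose and 4 fell (1 and 7 with library size alone). CKS1B, a small CDK-binding protein, rose from 66.5 ± 12.9 to 197 ± 10.5 CPM (SD, n = 3), and ENSA, whose product restrains the phosphatase PP2A, rose by 0.75 ± 0.13 (−0.06, not called, with library size alone). WEE1, the kinase that holds CDK1 inactive, fell from 62.3 ± 14.7 to 26.5 ± 7.99 CPM (SD, n = 3; log2 −1.23 ± 0.24, edgeR adjusted p = 0.0017). WEE1 was also called lower after removal of the length and GC trend (−1.07, edgeR adjusted p = 0.0034). CCNF, cyclin F, fell by 1.72 ± 0.30.

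Of 35 kinetochore and centromere genes 7 rose and 4 fell (1 and 22 with library size alone). Over all genes tested the shares were 27.2% higher and 28.9% lower (9.62% and 56.5% with library size alone). PMF1, of the MIS12 complex, rose by 1.34 ± 0.18 and CENPH, of the inner kinetochore, by 1.39 ± 0.25. PMF1 was not called after removal of the length and GC trend (0.39, edgeR adjusted p = 0.11), nor CENPH with library size alone (0.57, adjusted p = 0.058). KNL1, the scaffold on which BUB1 and BubR1 gather, fell from 32.6 ± 14.7 to 14.4 ± 0.596 CPM (SD, n = 3; log2 −1.18 ± 0.28, edgeR adjusted p = 0.0053), and after removal of the trend it was not called (−0.26, adjusted p = 0.47). HJURP, the chaperone that loads CENPA, fell by 0.89 ± 0.24. Of 18 genes around the anaphase-promoting complex 7 rose and 3 fell (3 and 9 with library size alone). The subunit CDC26 rose by 1.98 ± 0.24 and UBE2S, which extends the ubiquitin chains that UBE2C starts, rose from 306 ± 74.1 to 785 ± 18.4 CPM (SD, n = 3). UBE2S kept its call with library size alone (0.55, edgeR adjusted p = 0.019) and after removal of the trend (1.13, adjusted p = 0.00099). FZR1, which encodes CDH1, the activator that replaces CDC20 after anaphase, fell from 71.0 ± 3.62 to 27.6 ± 5.42 CPM (SD, n = 3; log2 −1.36 ± 0.18, edgeR adjusted p = 0.00014). The subunit ANAPC2 fell by 0.70 ± 0.16.

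Of 17 condensin and cohesin genes 1 rose and 6 fell (0 and 13 with library size alone). NCAPH2, of condensin II, rose by 0.70 ± 0.17 (−0.11, not called, with library size alone), and the cohesin subunits SMC3 and RAD21 fell (log2 −0.85 ± 0.17 and −0.73 ± 0.18, edgeR adjusted p = 0.0017 and 0.0055). Of 12 further spindle and cytokinesis genes 0 rose and 6 fell (0 and 9 with library size alone). NUMA1 and CKAP5, a spindle pole organiser and a microtubule polymerase, fell by 0.71 ± 0.13 and 0.88 ± 0.20, neither called after removal of the trend (edgeR adjusted p = 0.44 and 0.47). For comparison, 0 of 11 mitotic kinesin genes rose and 2 fell (median −0.43), and of 36 DNA replication genes 9 rose and 4 fell (median 0.22). Of all genes tested, 27.2% were called higher and 28.9% lower. With library size alone 11 of the 11 kinesin genes were lower, and of the replication genes 16 were lower and 0 higher. In that setting 56.5% of all genes were called lower and 9.62% higher. The difference between these lists and the 32 genes was not tested.

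The regulators of the mitotic genes were also split. FOXM1, the forkhead factor that drives G2 and M genes, read 65.0, 139 and 61.0 CPM untreated and 118, 128 and 95.1 CPM treated. It was not called (0.37 ± 0.29, edgeR adjusted p = 0.31), with untreated replicate 2 the highest of all 6 libraries. MYBL2, the B-MYB partner of the MuvB complex, read 76.9, 130.2 and 68.9 CPM untreated and 180, 190 and 138 CPM treated. All treated libraries were above the untreated ones, and MYBL2 rose by 0.88 ± 0.24 (edgeR adjusted p = 0.010), with 0.08 and no call under library size alone (adjusted p = 0.80). Of the MuvB core, LIN54, which contacts the homology region, and LIN52 fell (log2 −1.19 ± 0.26 and −0.91 ± 0.31, edgeR adjusted p = 0.0034 and 0.030), LIN54 with no call after removal of the trend (−0.57, adjusted p = 0.077). RBBP4 rose by 0.43 ± 0.13 but was called lower with library size alone (−0.38, adjusted p = 0.037), and LIN9 and LIN37 were not called. Every treated library of LIN37 lay below every untreated one (log2 −0.73 ± 0.38, edgeR adjusted p = 0.13). LIN37 was called lower with library size alone (−1.51, adjusted p = 0.0055) and after removal of the trend (−1.64, adjusted p = 0.0054). LIN9 was called lower with library size alone (−1.22, adjusted p = 0.016). RBL1, which encodes the repressor p107, fell from 13.8 ± 4.45 to 5.42 ± 0.990 CPM (SD, n = 3; log2 −1.35 ± 0.28, edgeR adjusted p = 0.0025), while RBL2, E2F4 and TFDP1 were not called (log2 0.09, −0.01 and −0.13). With library size alone RBL2, E2F4 and TFDP1 were called lower (−0.70, −0.81 and −0.93, edgeR adjusted p = 0.016, 0.00067 and 0.0021). E2F4 was also called lower after removal of the trend (−0.44, edgeR adjusted p = 0.029).

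Compared per kilobase of the longest coding transcript, CDC20 had the highest mean of the 32 genes in untreated cells at 75.3 CPM per kb, followed by UBE2C at 62.5, CDC25B at 59.9 and CCNB1 at 54.9. That place of CDC20 rests on untreated replicate 2, where it stood at 128 CPM per kb. In untreated replicate 1 UBE2C was highest at 56.9 and in replicate 3 CDC25B at 55.5 CPM per kb, with CDC20 at 52.1 and 45.9. CENPE and ASPM were the least abundant at 1.73 and 2.24 CPM per kb. After curcumin CDC20 and UBE2C stood at 130 and 106 CPM per kb and PTTG1 at 71.5, up from 37.8. CDC25B was then 64.3 and CCNB1 39.2 CPM per kb. These levels are means over 3 libraries on a per-length scale, and CDC20, UBE2C, CDC25B and CCNB1 each differed from the next in untreated cells by less than the SD of either gene.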

How the data were processed

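Per the labels' protocols, libraries were prepared from total RNA (SMARTER kit). The authors deposited estimated counts per gene, not scaled between libraries. Aligner, counting tool and strand setting: not given in the sources used here. GRCm38 and mm10, mouse builds, are listed in the submitters' processing notes, yet all 35106 rows carry human identifiers, so the table was read as human. Counts were rounded (largest shift 0.5), filtered with filterByExpr (minimum count 10, minimum total 15), scaled by TMM and tested with edgeR 4.0.16 (R 4.3.3), group only, with Benjamini-Hochberg adjustment over 13718 genes at a threshold of 0.05. Positions and transcript lengths are from GENCODE release 29 (GRCh38). The length and GC trend was a loess fit (span 0.3) of each library. DESeq2 1.42.0, limma 3.58.1 (voom), other scalings and filters, and each library left out in turn were alternatives. The test was tested on simulated data.

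The members and gene lists were chosen with earlier results of these data known. Named genes are every member, the MuvB list, and up to 2 higher and 2 lower genes of each other list with the smallest adjusted p. BIRC5 is an exception. Promoters were chosen among matched members as the largest fall, the largest rise and the 2 smallest changes. All replicate pairs differed by more than sampling noise (chi-square per degree of freedom 11.1 to 71.2). Without molecular identifiers, counts are not independent molecules.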

Additional observations from a re-analysis of the deposited data

How the results depend on the processing

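The calls of CENPF, TTK and INCENP held in all 16 planned settings. Library size alone called 1320 genes higher and 7747 lower, 0 and 25 of the 32, and 5 and 69 of the 106 other mitosis genes, with a median for the 32 of −1.09. With library sizes that leave out the 100 top genes, 0 and 15 of the 32 (18.4% and 40.9% of all genes) and 12 and 47 of the 106 were called. No filter called 14 of the 32 lower (20.6% of all genes), and the removed length and GC trend left 1 higher. That trend removed and untreated replicate 2 left out gave 6 higher and 3 lower of the 32 (24.0% and 19.6% of all genes), a median of 0.032, and 9 lower of the 106. Leaving out each library in turn gave 0 to 5 higher and 6 to 11 lower of the 32 and a median of −0.53 to 0.086. Of all genes, 23.1 to 27.5% were then called higher and 23.9 to 30.8% lower. Whether equal replicate numbers mark paired libraries is not settled by these values. Deviations from the group means correlated at 0.040, 0.023 and 0.11 between libraries of the same number, and 2 of 3 pairs correlated best with their own number. Of the 32 genes, 29 were lowest in replicate 3 among untreated and 28 among curcumin libraries. Among curcumin libraries 39.1% of all genes were lowest there, and the share among untreated libraries was not taken. With the number as a block, 3 of the 32 were higher and 10 lower (26.8% and 29.2% of all genes). CDC20 and CENPA were called in addition (edgeR adjusted p = 0.0096 and 0.048).

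Of 544 single-gene values under the alternatives, 407 had the same direction and call. A further 62 changed sign, whatever became of their call. With the sign kept, 33 lost a call and 42 gained one. Values (log2 fold change) that changed sign follow. With RLE factors these were CCNB2 at 0.029 and TPX2 at 0.029. With library size alone these were CDC25B at −0.69, CDC25C at −0.73, AURKB at −0.64, MAD2L1 at −0.78, CDC20 at −0.018, UBE2C at −0.045, PRC1 at −0.42 and HMMR at −0.37. With sizes leaving out the 100 top genes these were CDC25B at −0.25, CDC25C at −0.29, AURKB at −0.21 and MAD2L1 at −0.33. With no filter these were CDC25C at −0.013 and MAD2L1 at −0.059. With a mean of at least 50 counts these were CCNB2 at 0.028 and TPX2 at 0.028. With the replicate block these were CCNB2 at 0.048 and TPX2 at 0.033. With DESeq2 these were CCNB2 at 0.028 and TPX2 at 0.029. With limma-voom these were CCNB2 at 0.053 and TPX2 at 0.034. With the length and GC trend removed these were CDC25C at −0.28, TPX2 at 0.073, AURKB at −0.67, BUB3 at 0.58, UBE2C at −0.28, PTTG1 at −0.016 and ANLN at 0.04. With that trend removed and untreated replicate 2 left out these were CCNB2 at 0.13, PLK1 at 0.00044, TPX2 at 0.36, AURKB at −0.43, BUB1 at 0.18, BUB3 at 0.66, TOP2A at 0.21, NUSAP1 at 0.19, DLGAP5 at 0.063 and ANLN at 0.58. With 1 library left out in turn the ranges were CCNB2 −0.24 to 0.31, CDC25B −0.038 to 0.29, CDC25C −0.24 to 0.46, PLK1 −0.56 to 0.33, AURKA −0.42 to 0.23, TPX2 −0.22 to 0.30, NEK2 −0.44 to 0.13, AURKB −0.032 to 0.37, CDCA8 −0.51 to 0.039, BUB1 −0.80 to 0.039, MAD2L1 −0.27 to 0.38, NUSAP1 −0.36 to 0.36 and ANLN −0.69 to 0.16. The cause of these changes was not tested.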
